A study of Mus musculus with 36 samples.

Results

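The genes described here are 10 markers of stratified epithelium, the layered tissue of skin and its appendages, read in inguinal white fat: Krt5, Krt14, Krt15, Krt17, Lgals7, Gjb2, Pkp1, Ivl, Tfap2a and Sfn. They were taken by symbol from an array of 45281 probes, where 20 probes carry one of these symbols, and each gene was followed on its brightest probe that passed the background filter in inguinal fat. All 10 are among the 15818 genes tested there. They were picked because they were high in old inguinal fat, so their age difference in that tissue is given as a description and without a test. The series holds 36 Illumina MouseWG-6 v2 bead arrays, 12 from each of inguinal fat, brown fat and liver, all from C57BL/6J males, with no genotype or drug contrast. The young mice were 5 months and the old mice 24 months old. Each tissue and age has 1 array at each of 6 harvest hours, labelled 0, 4, 8, 12, 16 and 20 h, taken after all mice had been kept in dim red light. Each array stands for 3 mice by its label, with pooling of RNA unstated. The p-values of the age tests rest on how the old minus young difference varies between hours. No p-value here measures the spread between single mice.

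In stratified epithelium, cells divide in a basal layer, then move outward, fill with keratin filaments and end as a cornified sheet. Keratins assemble as pairs of a type II and a type I protein, and Krt5 with Krt14 is the pair of the basal layer. The inguinal depot is subcutaneous, with hair follicles and sebaceous glands nearby, and mammary tissue in females. All mice here were males. These arrays read whole tissue, so fewer cells of a type and less RNA per cell cannot be told apart.

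Krt14 and Krt17 lie in the type I keratin cluster, with Krt16 between them and no other protein-coding gene in either gap, and 2 protein-coding genes lie between Krt15 and Krt14 in the RefSeq table. Krt5 belongs to the type II cluster on another chromosome, and the remaining 6 genes lie outside both clusters. RefSeq promoter entries were found for 7 of the 10 genes; Krt15, Krt17 and Pkp1 had none. A pair of the 250-base windows upstream of a start site (build GRCm38.p6, minus strand) is shown, because the arrays below separate Krt5 from Gjb2 more than most pairs. Krt5 is at chr15:101712906-101713155 and Gjb2 at chr14:57104703-57104952, with searched motifs in capitals.
Krt5: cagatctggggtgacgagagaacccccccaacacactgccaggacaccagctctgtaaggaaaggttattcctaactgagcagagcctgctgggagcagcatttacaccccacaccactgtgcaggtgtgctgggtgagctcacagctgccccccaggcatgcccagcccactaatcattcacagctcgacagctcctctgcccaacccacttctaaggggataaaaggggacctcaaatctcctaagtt
Gjb2: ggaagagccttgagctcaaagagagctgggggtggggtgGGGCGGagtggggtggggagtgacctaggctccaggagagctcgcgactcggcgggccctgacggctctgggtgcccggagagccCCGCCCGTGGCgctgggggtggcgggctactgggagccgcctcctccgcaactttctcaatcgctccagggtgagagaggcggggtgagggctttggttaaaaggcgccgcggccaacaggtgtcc
The motifs were searched on both strands. They were the TATA box TATAAA, the GC box GGGCGG, the AP-1 site TGANTCA and a palindrome bound by AP-2 factors such as the product of Tfap2a, GCCNNNGGC. The Krt5 window held none of the 4. The Gjb2 window held a GC box at -211 to -206 from the start site, another at -126 to -121, and the AP-2 palindrome at -124 to -116, which overlaps the second GC box. Among all 27025 genes with a window, 12.97% held the TATA box, 32.94% the GC box, 6.868% the AP-1 site and 13.56% the AP-2 palindrome. Of the 7 genes here, 1, 3, 1 and 1 held them, and such a match says only that the letters are present.

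The keratins of the basal layer and of hair follicles were weak or intermittent in young inguinal fat and reached their highest intensities in old inguinal fat. For Krt14, the young arrays read 274, 5.46, 938, 201, 906 and 1.10 from 0 to 20 h, and the old arrays 252, 7243, 701, 14660, 2467 and 1646. The groups overlapped: the old arrays at 0 and 8 h lay below their young partners, and the other 4 old arrays lay above every young array. On the log2 scale, with 16 added to each intensity, old minus young was 3.66 ± 1.22 (SE, n = 6 hours), a 12.7-fold difference. Leaving out the 4 h and 12 h pairs brought it to 1.88.

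Krt5, its type II partner, ran from -0.912 to 99.3 with a median of 21.3 on young arrays and from 24.1 to 282 with a median of 103 on old arrays, where values at or below 0 lie under the subtracted background. It was higher in old mice at 5 of 6 hours, and 3 old arrays exceeded every young array. Krt15, a keratin of basal cells and of the hair follicle bulge, had a young range of 7.73 to 233 (median 54.6) and an old range of 32 to 731 (median 317). Its groups overlapped too, with old values below young ones at 0 and 16 h. Krt17, a keratin of skin appendages and injured epidermis, separated the ages. It ran from -0.383 to 393 (median 104) in young mice and from 434 to 9506 (median 1074) in old mice, so no old array overlapped a young one. Old minus young was 1.70 ± 0.58 for Krt5, 1.96 ± 0.74 for Krt15 and 3.79 ± 0.73 for Krt17 (log2, SE, n = 6 hours). Without the 4 h and 12 h pairs these values were 0.89, 1.05 and 2.66.

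Lgals7, a galectin of stratified epithelia, ran from 7.97 to 240 (median 57.9) on young and from 256 to 3789 (median 564) on old arrays. The groups did not overlap, and old minus young was 3.51 ± 0.78, or 2.17 without the 4 h and 12 h pairs. The other 2 Lgals7 probes gave 1.08 and 3.13. Ivl encodes involucrin, a precursor of the cornified envelope. It exceeded background on 1 of 6 young arrays, at 16 h with 33.1, and on all 6 old arrays, from 30.5 to 128. Its old minus young difference was 1.68 ± 0.34, and the 16 h pair, with 33.1 and 31.6, was the exception to the higher old value. With 5 young arrays below background, the size of that difference depends on the offset. The other Ivl probe gave 0.80, above background on no young and 5 old arrays. Without the 4 h and 12 h pairs the followed probe gave 1.22.

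The junction genes were higher in old mice at all 6 hours. Gjb2, a connexin of gap junctions, ran from 4.73 to 27.6 (median 16.5) in young mice and read 152, 1286, 364, 1509, 218 and 14.7 in old mice from 0 to 20 h. The old array at 20 h therefore lay inside the young range while the other 5 lay above it. Pkp1, which links desmosomes to keratin filaments, had a young range of 7.99 to 58.8 (median 15.8) and an old range of 46.3 to 375 (median 92.4). Old minus young was 3.26 ± 0.63 for Gjb2 and 1.96 ± 0.41 for Pkp1. Without the 4 h and 12 h pairs they were 2.14 and 1.20. The other 2 Gjb2 probes gave 2.14 and 1.12 over all hours.

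Tfap2a, a transcription factor of the surface ectoderm, lay below background on all 6 young arrays on the probe followed here. On the old arrays that probe read from 15.9 to 157 (median 39.8), so its signal was at least 2.55-fold higher there, taking the young level at the background threshold of 8.80. The other 4 Tfap2a probes gave log2 differences of -0.08, 0.00, 0.08 and 0.80, and the one at 0.00 exceeded background on 0 of 12 arrays. The probe at 0.08 exceeded background on 2 of 6 young and 4 of 6 old arrays, so the probes disagree on the age difference. Sfn, also called stratifin, restrains the cell cycle in keratinocytes. Its young range was 6.22 to 28.4 (median 19.0) and its old range 21.7 to 95.9 (median 31.5), a log2 difference of 0.80 ± 0.19. Its other probe, below background on all inguinal fat arrays, gave -0.04.

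Across the 10 genes the median old minus young difference was 1.96 on the log2 scale, beside -0.01 over all 15818 genes. Without the 4 h and 12 h pairs it was 1.21. A higher old value at all 6 hours held for 6 of 10 genes, beside 5.46% of all genes. Old arrays all above young arrays were seen for 3 of 10, beside 1.06%. Because the genes were picked on this contrast, these counts carry no further weight.

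**Figure D1:**
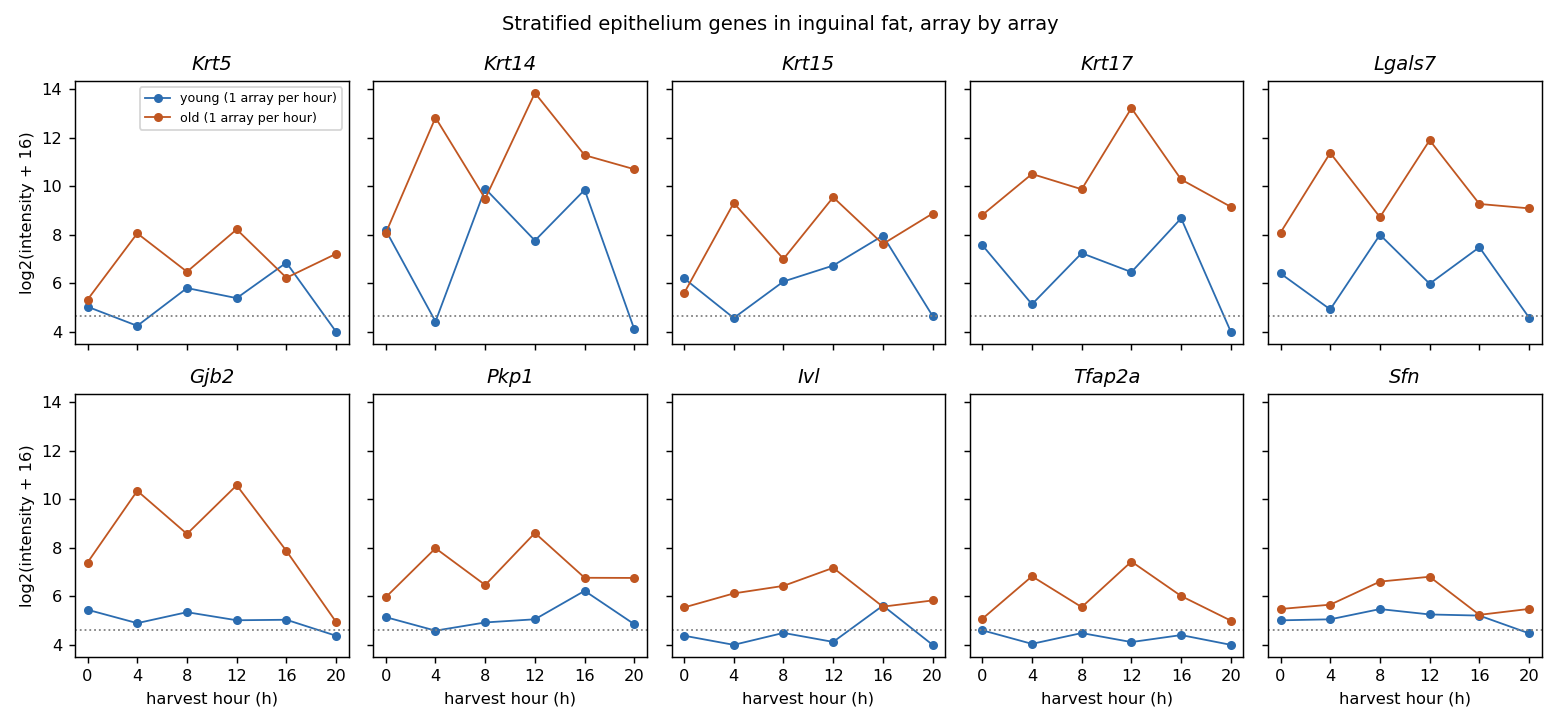
Intensity plus 16 (log axis) of the 10 genes on the 12 inguinal fat arrays by harvest hour in hours, 1 panel for each gene, young and old mice as 2 lines with 1 array at each point. Krt14 at 12 h reads 14660 in old mice against 201 in young mice, whereas at 0 h both ages lie close together.

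The genes tended to be high and low on the same arrays. After each age's mean was subtracted, all 45 pairs correlated positively over the 12 inguinal fat arrays, with a median r of 0.71 and a range from 0.31 to 0.95. The median was 0.77 within the 6 young arrays and 0.74 within the 6 old arrays. Ivl and Tfap2a were above background on at most 1 young array, so their young correlations are between values at background. The 28 pairs of the other 8 genes had a median of 0.77 in young and 0.74 in old mice. These points share their arrays and their joint normalization, and the values are descriptive. The tightest pairs were Krt14 with Lgals7 at 0.95 and Krt5 with Krt15 at 0.95, and the keratin partners Krt5 and Krt14 reached 0.91.

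In old mice the 12 h array was the highest for all 10 genes. The lowest old array was the one at 0 h for 7 genes, at 20 h for Gjb2 and Tfap2a, and at 16 h for Sfn. In young mice the 16 h array was highest for 5 genes, the 8 h array for 3 and the 0 h array for Gjb2, leaving out Tfap2a, which was below background on all of them. A shared order was not complete. Krt15 with Gjb2 had the lowest pair correlation, 0.31, and Gjb2 with the other members had a median of 0.55 beside 0.81 for Krt5. On the old 20 h array Krt14 read 1646 and Krt15 453, above every young array, whereas Gjb2 read 14.7, inside its young range. Sfn had the lowest median correlation with the other members, 0.50.

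Daily rhythm was examined because the harvest hours span a day. A 24 h cosine with age in the model was called for 9 of 15818 genes (0.0569%, limma, adjusted p under 0.05), and none of the 10 genes was among them. An unadjusted limma p under 0.05 was found for 924 of the 15818 genes. Of the 10 genes only Sfn had one (adjusted p = 0.538 by limma), with an amplitude of 0.54 and a peak at 9.36 h. The other 9 had adjusted p from 0.905 to 0.962 by limma. A rhythm that differs between ages was called for 0 genes on the array, of which 724 had an unadjusted p under 0.05, and for the 10 genes the adjusted p by limma ran from 0.852 to 0.999.

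Other genes of stratified epithelium, from 5 lists that leave out the 10 genes, were mostly higher in old inguinal fat as well. The lists were chosen with earlier results of these data known, so their counts and tests are not independent support. The lists have 78 genes on the array, of which 45 passed the filter and were tested. Among those that failed, Krt2, Krt4, Krt13, Dsg3 and Dsc1 were above background on 0 of 12 arrays. Others that failed, such as Gjb6 and Ovol1, were above it on 5 old arrays and 0 young ones. The counts that follow therefore do not cover the whole lists. Of 45 tested genes 41 were higher and 4 lower, a median log2 difference of 0.77, whereas 47.5% of all genes were higher. By limma 3 rose and none fell, beside 1.23% of all genes that rose, and 27 of 45 had an unadjusted p under 0.05, beside 24.0% of all genes. Of the 45, 2 were above background on at most 1 young array, so they passed the filter through the old arrays, and of the other 43 genes 39 were higher. The 43 still include genes above background mainly on old arrays, such as Cldn4, Casp14, Cnfn, Tfap2b, Esrp1 and Esrp2. These also passed the filter largely through the old arrays, so the 39 of 43 is not free of the filter. The genes that rose by limma were Krt80, Dmkn and Zfp750. Krt80, a keratin of differentiating epithelium, differed by 0.64 ± 0.11 (SE, limma adjusted p = 0.0286). Dmkn, dermokine of the upper epidermis, differed by 1.66 ± 0.36 (limma adjusted p = 0.0437). Zfp750, a transcription factor of keratinocyte differentiation, differed by 1.51 ± 0.28 (limma adjusted p = 0.0329). Each was higher in old mice at 6 of 6 hours. Zfp750 was above background on 1 of 6 young and all 6 old arrays, so the size of its difference rests on young values near background. With values under 16 set to 16, the limma adjusted p was 0.0651 for Krt80, 0.0854 for Dmkn and 0.0947 for Zfp750. These calls depended on the settings: over 16 alternatives Krt80 passed in 9, Zfp750 in 8 and Dmkn in 5, all with the same direction. Without the 0 h pair 0 of 15847 genes passed by limma, with 2899 at an unadjusted p under 0.05.

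Among basal adhesion genes 5 of 5 were higher and none passed, with Col17a1 of the hemidesmosome at 1.29 ± 0.57 (limma adjusted p = 0.216). Among desmosome and junction genes 5 of 7 were higher and none passed, with the tight junction gene Cldn4 at 1.71 ± 0.51 (adjusted p = 0.0926). Of 15 cornified layer genes 14 were higher, and of 11 epithelial transcription factors 10 were. The suprabasal keratin Krt10 and the cornified envelope gene Lor differed from the 10 genes in their order of arrays. Their highest array was the old one at 20 h, with 4352 for Krt10 and 3516 for Lor, and their log2 differences were 0.84 ± 0.57 and 1.81 ± 1.37 (adjusted p = 0.417 and 0.462).

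Genes of skin appendages were high on different old arrays. Hair follicle keratins peaked on the old 8 h array, where Krt27 read 1880, Krt71 1650 and Krt86 1140, while at 4 h and 20 h in old mice they lay between -9.7 and 4.4. On that 8 h array Krt14 read 701, below its young partner. All 6 tested hair follicle genes were higher in old mice and none passed, with a median of 1.81. The list has 16 genes on the array, and the others failed the filter. Krt27, Krt71 and Krt86 were above background on 6 of 12 arrays each, more of them old than young. They passed the filter largely through the old arrays, so the count and the median depend on it. On the old arrays at 4 h and 12 h, Krt79, a keratin of the hair follicle opening and sebaceous duct, read 2406 and 4839, and Fa2h, a fatty acid hydroxylase of sebaceous glands, read 699 and 997. Their log2 differences were 2.27 ± 0.66 and 1.90 ± 0.60 (limma adjusted p = 0.0884 and 0.107). Both sebaceous genes tested were higher and none passed. The sebaceous list has 8 genes on the array, and the others failed the filter. Scd3, Awat1, Elovl3 and Far2 were above background on 0 of 12 arrays, Awat2 on 1 young and 3 old, and Dgat2l6 on 2 old arrays.

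Among markers of simple and mammary epithelium, 9 of 10 tested genes were higher and none passed. The secreted defence proteins Lcn2 and Ltf were highest on the old 12 h array, at 3092 and 5222. The milk protein genes Csn2, Wap and Lalba and the simple epithelium marker Epcam lay below background on all 12 arrays. Other members of this list, named after their values were seen, were present on some: the milk protein gene Csn3 read 292 on the young 0 h and 114 on the old 8 h array, and the simple epithelium keratin Krt8 120.1 on the young 0 h and 167 on the old 12 h array. The melanocyte genes Tyr and Oca2 lay below background on all 12 arrays. Tyrp1 read 10.4 on the old 8 h array, and Pmel read 10.5 and 19.5 on the old 0 and 8 h arrays. Both tested melanocyte genes, Mlana and Dct, did not pass.

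Skeletal muscle transcripts varied strongly among the same arrays. Their level, the mean log2 value over 13 tested genes, was 7.13 to 12.8 on young and 8.02 to 14.2 on old inguinal fat arrays. The median level was 9.56 on young and 8.79 on old arrays. By mean difference 13 of 13 genes were higher in old mice, and none passed. That count does not show a rise on most arrays, because among old arrays only those at 0 and 4 h exceeded the young median. The muscle level and the 10 genes followed no common order in old mice. The muscle level was 14.2 on the 4 h array and 8.02 on the 12 h array, the 2 arrays where most of the 10 genes were highest, and 13.3 on the 0 h array, where 7 of them were lowest. Lymph node genes went the other way: 0 of 11 were higher and 8 fell (3.01% of all genes fell), with Glycam1, a product of lymph node venules, at -2.81 ± 0.39 (limma adjusted p = 0.0201). Their level was 9.03 to 10.6 on young and 7.63 to 9.24 on old arrays. The part of these other tissues in the age difference of the 10 genes was not tested. All 8 adipocyte markers were tested, and their level was 12.7 to 13.6 on young and 12.9 to 13.7 on old arrays. Of these markers 8 of 8 were higher in old mice, with a median log2 difference of 0.19, and none passed.

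The genes whose arrays ran most like the mean of the 10 were ranked by r over the 12 inguinal fat arrays after subtraction of age means, among 15808 other genes. The first was Lypd3, a surface protein of suprabasal keratinocytes, with r = 0.96. Klk7, a peptidase of the cornified layer, had 0.95. Crct1 and Ly6g6c had 0.93 each, Zfp750 0.93, the epithelial GTPase Rab25 0.92 and the skin protease Asprv1 0.92. The remaining 3 of the first 10 were probes with no symbol.

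In brown fat 4 of the 10 genes passed the filter on low values. By limma none passed the age test, where 0.24% of all genes rose. None had an unadjusted p under 0.05, beside 1104 of all 15815 genes. Old minus young was 0.63 ± 0.48 for Krt15, 0.70 ± 0.53 for Lgals7, -0.10 ± 0.17 for Gjb2 and 0.19 ± 0.12 for Pkp1, with adjusted p from 0.820 to 0.936. Ivl and Sfn lay below background on all 12 brown fat arrays. Krt15 lay above background on 9 of the 12 brown fat arrays, Krt5 on 5, and Krt14 and Krt17 on 4 each, 3 of them old. Krt14 read 284 on the young 8 h array and at most 2.94 on the other 5 young arrays, and it read 165, 787 and 282 on the old arrays at 4, 12 and 20 h but at most 3.74 on the other 3. Krt15, Krt17 and Lgals7 were also highest among young brown fat arrays at 8 h, and among old ones at 12 h, with 260, 219 and 172. The cornified layer list had its highest levels on the same arrays, 6.87 at 8 h in young and 6.92 at 12 h in old mice.

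In liver 3 of the 10 genes passed the filter and none passed the age test (3.42% of all genes rose there and 0.607% fell). Again none had an unadjusted p under 0.05, beside 2857 of all 15812 genes. Old minus young was 0.48 ± 0.64 for Lgals7, -0.11 ± 0.11 for Gjb2 and -0.05 ± 0.24 for Pkp1, with limma adjusted p from 0.650 to 0.937. On the old 4 h array Krt14 read 131, Krt15 114, Lgals7 309, Krt5 56.9 and Pkp1 58.4, each the highest of the 12 liver arrays. The cornified layer list was highest there too, at 6.93, and the skeletal muscle level of that array was 9.56. Whether the age difference itself differs between tissues was not tested for genes chosen on inguinal fat.

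Gjb2 parted from the other 9 genes in liver. Hepatocytes use this connexin in their gap junctions, and its intensity ran from 5293 to 7625 on young and from 5114 to 6651 on old liver arrays, against 15.1 to 45.2 on all brown fat arrays. Brown fat minus liver was -7.14 ± 0.08 on the log2 scale (limma adjusted p = 1.00e-19), in a comparison where 32.1% of genes were lower and 38.8% higher in brown fat. Krt15, Lgals7 and Pkp1 differed by 0.59 ± 0.31, 0.12 ± 0.37 and -0.02 ± 0.15, and none of the 3 passed.

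**Figure D2:**
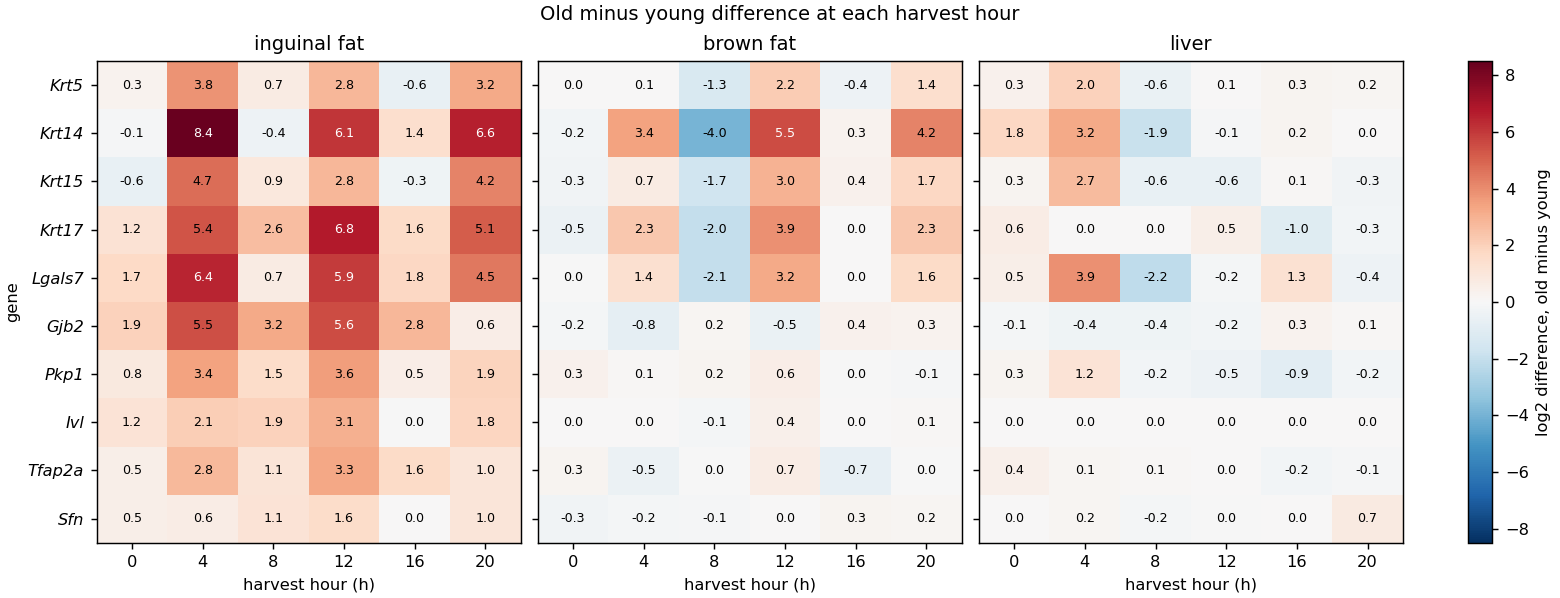
Old minus young log2 difference (colour and printed value) at each harvest hour in hours for the 10 genes in inguinal fat, brown fat and liver. In inguinal fat nearly all cells are positive, in brown fat the keratins are positive at 4, 12 and 20 h and negative at 8 h, and in liver Krt5, Krt14, Krt15 and Lgals7 are positive at 4 h.

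The tissues of each array trio came from the same groups of mice, so the level in inguinal fat was set against that in brown fat over the 12 groups, after subtraction of age means. Krt14 had r = 0.631 (p = 0.034, 2-sided permutation within ages) and Spearman's rho 0.643 (p = 0.029, permutation). Adjusted over the 20 relations computed, p was 0.340 and 0.391. Without the 2 groups farthest from the median, r was 0.579 (permutation p = 0.095). Within the 6 young groups r was 0.496 and within the 6 old groups 0.789. In brown fat Krt14 was above background on 1 young and 3 old arrays, so these values rest on few arrays. Krt5 had r = 0.600 (p = 0.056 by permutation) and rho 0.638 (p = 0.039 by permutation, adjusted 0.391). Lgals7 had r = 0.664 (p = 0.032 by permutation, adjusted 0.340) and 0.260 without its 2 farthest groups, so its relation rests on those. Gjb2 had r = -0.006. None of the 20 relations passed the adjustment.

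**Figure D3:**
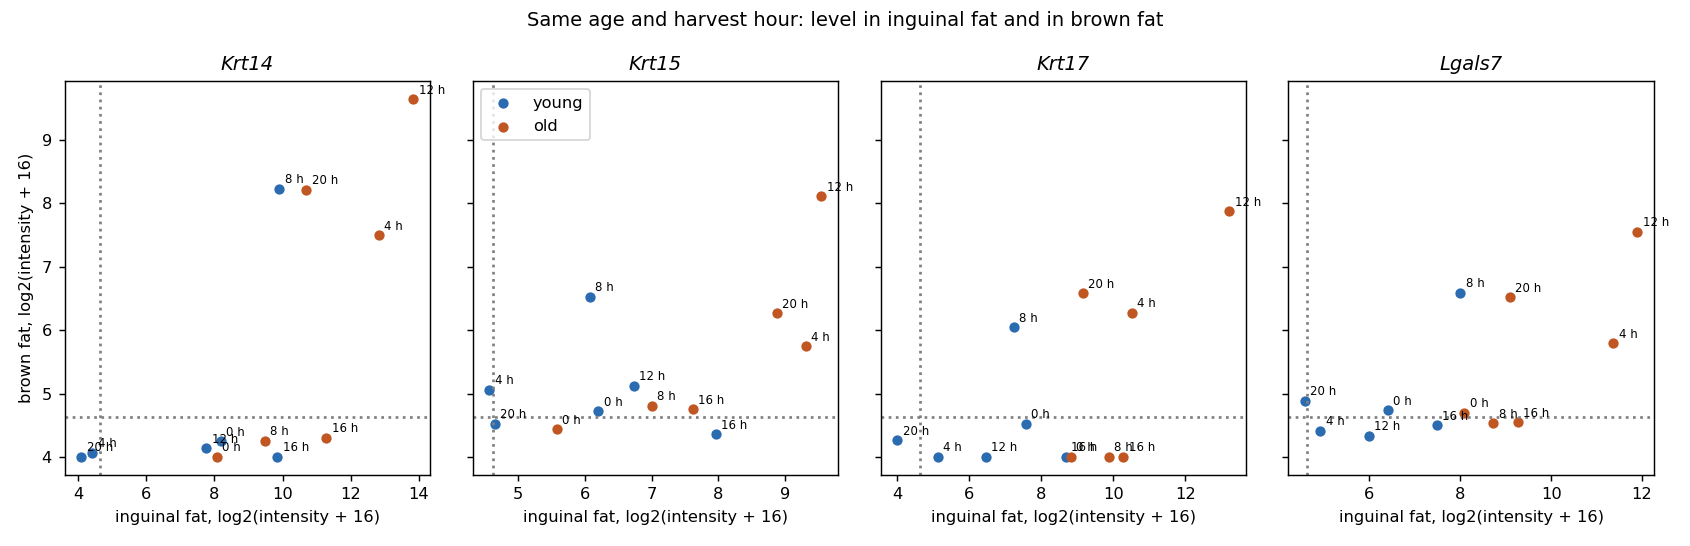
Log2 intensity in brown fat against that in inguinal fat for the same groups of mice, 1 point for each age and harvest hour in hours, young and old in different colours. For Krt14 the old groups at 4, 12 and 20 h are high on both axes, and the old group at 16 h is high in inguinal fat alone.

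Arrays correlated with the others of their tissue at a mean r of 0.961 to 0.988. The value was smallest for the 4 h array of old inguinal fat, which is among the 2 highest old arrays for 8 of the 10 genes.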

How the data were processed

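The files hold the authors' deposited linear-scale intensity for each probe, from BeadStudio per the submitters' processing notes; its version, the background step and the scaling are not given in the sources used here. Of the values of each array 28.7 to 29.1% lay below 0 and all arrays shared nearly one distribution, so a background had been subtracted and arrays scaled jointly, tissues together. A second table has 144 columns that could not be put to samples by name and was not used, so the planned neqc normalization gave way to the deposited intensities.

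Negative values were raised to 0, and log2 was taken after adding 16. A probe was above background over 8.80, the 95% point of noise with an SD of 5.35 estimated from values below 0, and genes above it on at least 6 of 12 arrays of a tissue were tested. Each of the 10 genes kept its brightest passing inguinal probe in all tissues, and their other probes were left out. Differences of genes near background depend on the offset. Age was fitted by tissue (limma 3.58.1, R 4.3.3), with harvest hour as a factor with 6 levels (5 residual degrees of freedom), and p-values were adjusted by Benjamini-Hochberg over all genes of the tissue at a threshold of 0.05. Rose and fell mean past that threshold for single genes. The fits were tested on simulated data.

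The sample labels give hours 4 h apart, whereas the treatment protocol gives another interval. The design text names the depot as inguinal and, at RNA isolation, by the abbreviation of another depot. Members and gene lists were chosen with earlier results of these data known. Other genes named are those of the lists past the threshold in inguinal fat and up to 3 per list with the largest difference, or the 10 most like the members. Alternatives were other offsets, a floor, no filter, the mean of probes, limma's trend and robust options, no hour term and leaving out hours. The deviations of same-hour young and old arrays correlated with r from -0.30 to 0.31 in inguinal fat, so the hour did not pair them. The hour was kept in the fit as a factor of the design.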

Additional observations from a re-analysis of the deposited data

Results flagged for a closer look

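In 50 groups of 6 arrays, 12 single arrays lay far from the other 5 by Dixon's criterion (gap over range above 0.625). For normally distributed values chance gives this in about 1 of 20 groups. That rate does not hold here, because negative values were raised to 0 and are tied. Examples are Krt17 in young liver (median intensity -2.03) and Sfn in old liver (median -0.57), where any signal stands out. In young brown fat the 8 h array stood above the rest for Krt14 (log2 value 8.23), Krt15 (6.53), Krt17 (6.04) and Lgals7 (6.59). In young liver the 8 h array did so for Krt14 (6.01) and Lgals7 (6.54), and the 16 h array for Krt17 (5.03). In old liver the 4 h array was far above for Krt15 (7.02) and Pkp1 (6.22), and the 20 h array for Sfn (4.73). In young inguinal fat the 16 h array was far above for Pkp1 (6.23) and Ivl (5.62). These genes share the arrays, so the flags are not independent.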

How the results depend on the processing

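The median old minus young log2 difference of the 10 genes in inguinal fat, 1.96, ran from 1.63 to 2.33 when each hour pair was left out, and was 1.21 without the 4 h and 12 h pairs, an alternative chosen after seeing the data; each stayed within the spread between hours. No member passed the age test in brown fat or liver, or the rhythm test, under any alternative. The count of genes past the age threshold in inguinal fat, 670, was 80 without the filter and 0 to 416 without 1 hour pair (0 without 0 h, with 2899 at an unadjusted p under 0.05), and 0 without 4 h and 12 h (3112 unadjusted). With no replicate block, that is without the hour term, it was 939; the hours with which young and old arrays share a number did not pair them, since same-hour deviations were not all positive. In brown fat the count of 38 was 19 with offset 8, 4 with values under 16 set to 16, 1 without the filter and 3 to 58 without 1 hour pair. In liver the count of 636 was 167 without the filter, 967 with limma's trend and robust options and 282 to 420 without 1 hour pair. The rhythm count of 9 was 5 with offset 32, 5 with offset 8, 1 with values under 16 set to 16, 0 without the filter, 5 with the mean of probes and 0 to 11 without 1 hour pair. The cause of these shifts was not tested. Between inguinal and brown fat, r of Pkp1 went from 0.440 to -0.082 without the 2 farthest groups (old 12 h and young 16 h). Relations near 0 also changed sign: Gjb2 between inguinal and brown fat to 0.014 with offset 8, Gjb2 between inguinal fat and liver to 0.057 without the 2 farthest groups, and Krt5 between brown fat and liver to 0.199 without the 2 farthest groups and 0.033 with offset 8. The neqc normalization was not run. Signal near background limits Ivl, Tfap2a and Sfn most.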

Other observations

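Among list genes that failed the filter, being above background on fewer than 6 of 12 inguinal fat arrays, 2 were singled out after their values were seen. Gjb6, a connexin that partners Gjb2 in the epidermis, lay at or below 0.3 on all 6 young inguinal fat arrays and read 28.4, 651, 49.7, 617, 78.0 and -3.7 on the old arrays from 0 to 20 h. At 20 h it was the lowest of the old arrays, as was Gjb2 with 14.7. Awat2, a wax synthase of sebaceous glands, read 1208 and 1794 on the old arrays at 4 and 12 h, 207 at 16 h, and between 3.7 and 8.4 on the other 3 old arrays; on young arrays it was at most 14.4.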
